A study of Mus musculus with 16 samples.

Results

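A set of 10 mouse mRNAs that mark neutrophils and monocytes were followed after transcription was blocked: 4 genes of the primary granules (Mpo, Elane, Prtn3 and Ctsg), 3 of the later, secondary granules (Ltf, Camp and Ngp), the pair S100a8 and S100a9, and Ly6c2. They were taken by name, through their Ensembl identifiers, from the 55414 mouse genes counted in each of 16 RNA-seq count files, and all 10 were among the 25081 genes with enough counts to be tested. The samples came from mouse bone marrow depleted of lineage-positive cells and cultured with the cytokines stem cell factor and thrombopoietin. Actinomycin D, an inhibitor of transcription, was given at 5 µM to wild-type and Nat10-deficient cells, stem cells were sorted after 0, 1, 3 or 5 h, and an ERCC spike-in (a set of synthetic RNAs) was added to the total RNA. Each of the 8 combinations of genotype and time had 2 count files. Nat10 is an RNA acetyltransferase, and the study measured how long mRNAs last with and without it. The labels call the cells long-term haematopoietic stem cells (LT-HSCs) in one field and 32D cells, a myeloid cell line, in another, and they give neither the allele behind the Nat10 deficiency nor the animals behind a sample.

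Neutrophils fill their granules in a fixed order as they mature. Progenitors and promyelocytes make the primary (azurophil) granule proteins, a peroxidase and a set of serine proteases; myelocytes and later cells switch to the secondary granule proteins, and S100a8 and S100a9 accumulate towards the end. Blood stem cells are upstream of this programme, but progenitors committed to the granulocyte and monocyte lineage already carry large amounts of primary granule mRNA. The ratio of primary to secondary granule mRNA is therefore a familiar measure of neutrophil stage. In bulk RNA, fewer cells of a type and less RNA per cell cannot be told apart.

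Several properties of the whole set bear on every value. Gene counts were 8937577 to 17270309 per file, and the spike-ins took 1.81 to 2.91% of all counts in the wild-type groups but 0.0224 to 0.126% in the groups labelled as Nat10-deficient (means of 2 files). The 432 immunoglobulin genes, J chain not among them, took 3.62, 25.6, 49.4 and 59.5% of gene counts at 0, 1, 3 and 5 h in the wild type and 6.44, 9.02, 24.5 and 3.90% in the libraries labelled as Nat10-deficient. Nat10 itself stood at 103 ± 0.0424 counts per 1000000 gene counts (CPM; SD, n = 2) in the wild type and 111 ± 2.51 CPM in the libraries labelled as Nat10-deficient at 0 h, and at 16.1 ± 0.891 and 154 ± 10.4 CPM at 5 h, so its mRNA level did not separate the genotypes in the direction of the labels. Within each of the 8 groups, both file headers named 1 and the same alignment, so the p-values below measure only the spread between 2 files of a group, which may be technical. Markers of the labelled cell type were present: Kit, the stem cell factor receptor, was at 678 CPM in the wild type at 0 h and 463 CPM in the libraries labelled as Nat10-deficient, and at 37.0 and 151 CPM by 5 h. Defining genes of mature neutrophils were at or near 0, with Ly6g at 0 in 7 groups and 0.0690 CPM in the remaining one, Fpr1 at no more than 0.194 CPM and Cxcr2 at no more than 4.34 CPM.

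The members sit in a few clusters of the genome. In the GRCm39 coordinates of the deposited files, Elane (ENSMUSG00000020125, chr10:79722081-79724049, plus strand), which encodes neutrophil elastase, and Prtn3 (ENSMUSG00000057729, chr10:79710310-79719008, plus strand), which encodes proteinase 3, lie side by side. Mpo (ENSMUSG00000009350, chr11:87684407-87695239, plus strand) encodes myeloperoxidase, which makes hypochlorous acid, and Ctsg (ENSMUSG00000040314, chr14:56337338-56340031, minus strand) encodes the protease cathepsin G. The secondary granule genes all lie on chromosome 9: Ltf (ENSMUSG00000032496, chr9:110848339-110871835, plus strand) for the iron binder lactoferrin, Camp (ENSMUSG00000038357, chr9:109676447-109678685, minus strand) for the antimicrobial peptide cathelicidin, and Ngp (ENSMUSG00000032484, chr9:110248815-110252080, plus strand) for neutrophilic granule protein. S100a8 (ENSMUSG00000056054, chr3:90576285-90577342, plus strand) and S100a9 (ENSMUSG00000056071, chr3:90599939-90603028, minus strand) encode the subunits of calprotectin, a calcium and zinc binder of the cytosol. Ly6c2 (ENSMUSG00000022584, chr15:74980007-74983819, minus strand) encodes a surface antigen that is high on inflammatory monocytes; it has a near-identical neighbour, Ly6c1, so its counts are uncertain where reads fit both.

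Promoter sequences of the primary granule genes, Ltf and Ngp are shown as a description, and any bearing on the levels below was not tested. All 10 members matched an entry of the RefSeq promoter table (GRCm38.p6), and 2 motifs for which myeloid factors are known were searched on both strands of the 250 bases before the start: GGAAGT, a core bound by Ets factors such as PU.1, and TTGCNNAA, a core bound by C/EBP factors. The 60 bases below are on the coding strand, with a match on either strand in capitals.
Mpo, chr11:87793536-87793595, plus strand: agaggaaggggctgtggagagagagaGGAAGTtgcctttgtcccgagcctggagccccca
Elane, chr10:79886203-79886262, plus strand: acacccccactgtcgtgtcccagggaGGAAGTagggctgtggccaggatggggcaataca
Prtn3, chr10:79879548-79879607, plus strand: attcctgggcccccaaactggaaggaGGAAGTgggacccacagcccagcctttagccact
Ctsg, chr14:56102746-56102805, minus strand: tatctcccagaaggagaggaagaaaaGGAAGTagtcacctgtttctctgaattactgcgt
Ltf, chr9:111019191-111019250, plus strand: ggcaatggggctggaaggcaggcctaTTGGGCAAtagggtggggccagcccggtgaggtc
Ngp, chr9:110419748-110419807, plus strand: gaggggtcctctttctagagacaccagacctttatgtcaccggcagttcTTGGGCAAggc
GGAAGT was found in 7 of the 10 members, namely all 4 primary granule genes, S100a8, S100a9 and Ly6c2, against 20.0% of 27025 promoters. TTGCNNAA was found in 3 members, Ltf, Ngp and S100a9, against 9.55% of promoters. Camp held neither in this window. In the 4 primary granule genes the match began 222 (Mpo), 83 (Elane), 93 (Prtn3) and 205 (Ctsg) bases before the start, so it had no shared position. A match describes these letters and is not a binding site.

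At 0 h the primary granule mRNAs were abundant in both genotypes and the secondary ones were close to the limit of counting. Per kilobase of exon in the wild type at 0 h, Elane stood at 1501 and 1529 CPM, Mpo at 963 and 978, Prtn3 at 575 and 571 and Ctsg at 333 and 320. Ly6c2 followed at 71.0 and 73.2 CPM per kb, S100a8 at 51.4 and 50.6 and S100a9 at 15.7 and 22.8. At the foot of the order, Ngp was at 2.32 and 2.42 CPM per kb, Camp at 2.37 and 1.52 and Ltf at 1.73 and 1.14. The files of a group did not overlap between neighbours from Elane down to S100a9, while the values of Ngp and Camp overlapped, as did those of Camp and Ltf. The 4 primary genes kept that order in the libraries labelled as Nat10-deficient at 0 h, with Elane at 2577 and 2562 CPM per kb and Ctsg at 599 and 587.

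Mpo and Elane moved almost as 1 transcript. Values are given below for 0, 1, 3 and 5 h in that order. The wild-type files held 3297 and 3349, 1586 and 1548, 3386 and 3446, and 2689 and 2683 CPM of Mpo. The libraries labelled as Nat10-deficient held 5902 and 5864, 7129 and 7108, 10862 and 10826, and 8603 and 8585 CPM. On this scale, which is a share of each library, every Mpo value of the latter libraries lay above every wild-type value, and the wild type alone had a trough at 1 h.

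Elane, which cleaves elastin and bacterial proteins, had the same shape. It stood at 1477 and 1505, 712 and 693, 1527 and 1536, and 1206 and 1199 CPM in the wild type. It stood in the other libraries at 2536 and 2521, 3224 and 3168, 4994 and 5016, and 3950 and 3971 CPM. The genotypes did not overlap at any time, and the low point was again the wild type at 1 h.

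Prtn3 and Ctsg departed from this shape in the wild type. Prtn3 stood at 996 and 989, 617 and 599, 621 and 627, and 493 and 508 CPM, without the recovery of its neighbour Elane. Ctsg had a partial recovery, with 344 and 330, 167 and 153, 273 and 268, and 193 and 197 CPM. In the libraries labelled as Nat10-deficient both genes peaked at 3 h: Prtn3 at 1126 and 1114, 1413 and 1440, 1853 and 1859, and 1433 and 1466 CPM, and Ctsg at 618 and 606, 759 and 760, 1003 in both files, and 651 and 626 CPM.

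**Figure D1:**
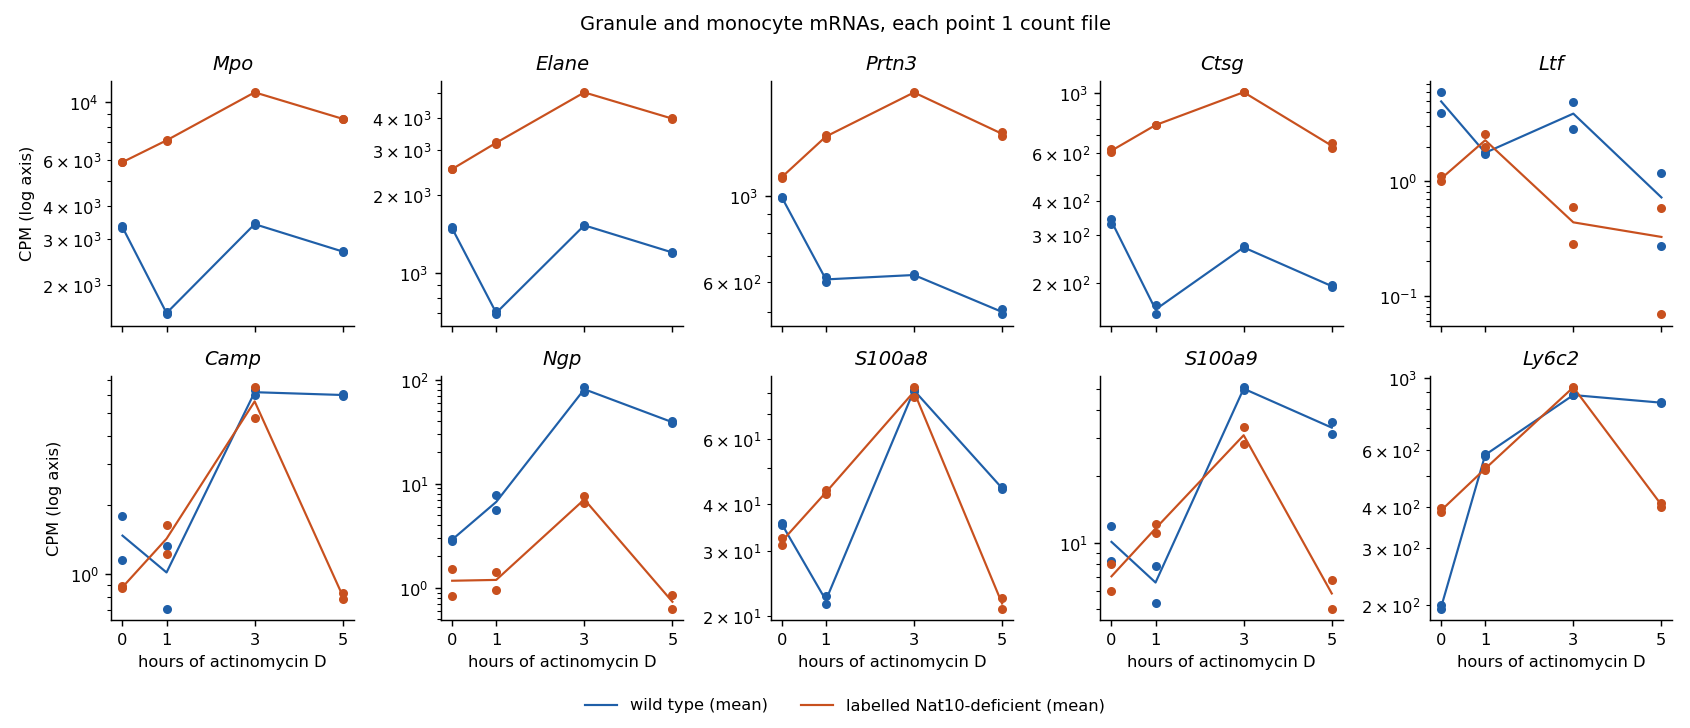
CPM of each member (log axis) against hours of actinomycin D, with 1 point per count file and lines through the mean of 2 files, wild type in blue and libraries labelled as Nat10-deficient in orange. The primary granule genes in the first 4 panels are separated by genotype at every time, whereas the other 6 members cross or converge at 1 or more times except Ngp, which is lower in the orange series throughout.

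Ratios within a library do not depend on how libraries are scaled, and they separated the members sharply. The log2 ratio of Mpo to Elane per kb lay between -0.69 and -0.58 in all 16 files, a range of 0.11. The log2 ratio of Mpo to Ctsg had a range of 0.58 (1.50 to 2.07), and that of Mpo to Prtn3 a range of 1.22 (0.38 to 1.6). In the wild type Mpo over Prtn3 was 0.74 and 0.78, 0.38 and 0.39, 1.46 and 1.47, and 1.46 and 1.42, so the balance between these 2 primary granule mRNAs changed between 1 and 3 h. In the libraries labelled as Nat10-deficient it was already 1.41 in both files at 0 h and ranged from 1.32 to 1.6. Prtn3 accordingly made up 20.9% of the primary granule CPM per kb in the wild type at 1 h and 11.3% at 3 h, against 10.4 to 12.0% in the groups labelled as Nat10-deficient (means of 2 files).

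**Figure D2:**
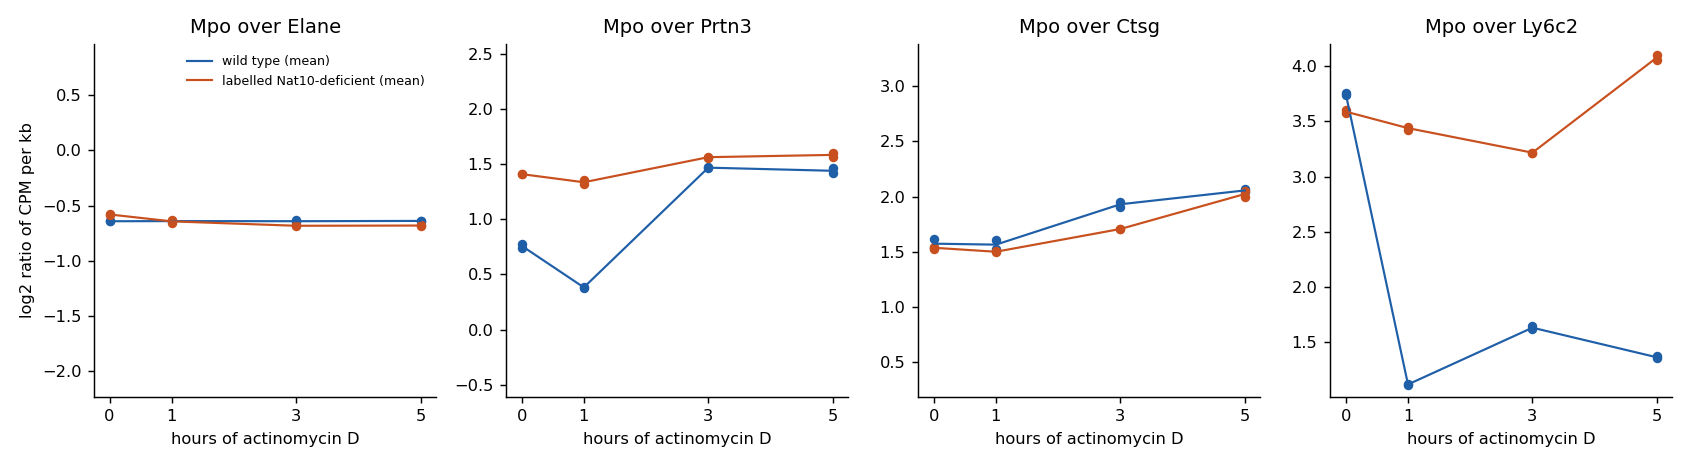
Log2 ratio of Mpo to Elane, Prtn3, Ctsg and Ly6c2 within each count file, on CPM per kb, against hours of actinomycin D; points are files and lines their mean, and each panel spans the same height. Mpo over Elane is flat in both genotypes, Mpo over Prtn3 steps up in the wild type between 1 and 3 h, and Mpo over Ly6c2 drops in the wild type within the first hour.

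The secondary granule mRNAs were scarce, apart from Ngp in the wild type at 3 and 5 h. Wild-type files held Ngp at 2.84 and 2.96, 5.56 and 7.79, 84.8 and 76.5, and 38.1 and 39.6 CPM, from 38 and 36 counts at 0 h and 804 and 684 counts at 3 h. The libraries labelled as Nat10-deficient held 0.830 and 1.51, 1.43 and 0.953, 7.55 and 6.54, and 0.621 and 0.845 CPM. Both genotypes were highest at 3 h, the genotypes did not overlap at any time, and the wild type's highest mean was 27.8 times its lowest.

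Camp rose late as well, from few counts. Wild-type files held 1.79 and 1.15, 0.705 and 1.33, 6.33 and 6.04, and 5.94 and 6.09 CPM. The libraries labelled as Nat10-deficient held 0.890 and 0.869, 1.63 and 1.22, 6.51 and 4.77, and 0.829 and 0.780 CPM. The genotypes overlapped at 1 h and 3 h, and at 5 h Camp stayed up in the wild type alone.

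Ltf, the classical marker of secondary granules, did not follow Camp and Ngp. It was at 5.98 and 3.95, 1.80 and 1.74, 2.85 and 4.92, and 1.17 and 0.273 CPM in the wild type, and at 1.01 and 1.10, 1.97 and 2.59, 0.592 and 0.285, and 0.0690 and 0.585 CPM in the libraries labelled as Nat10-deficient. Counts ran from 1 to 80 per file, and both files of a group differed by over 4 times in 2 groups, the 5 h groups of both genotypes.

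S100a8 and S100a9 followed the time of Camp and Ngp. Both were above Camp in every file. In the wild type, Ngp overlapped S100a8 at 3 h and S100a9 at 1 h, and exceeded S100a9 at 3 and 5 h. S100a8 was at 35.6 and 35.1, 22.6 and 21.5, 81.0 and 81.2, and 44.0 and 44.4 CPM in the wild type, and at 31.1 and 32.5, 42.5 and 43.6, 78.0 and 82.8, and 22.4 and 20.9 CPM in the libraries labelled as Nat10-deficient. S100a9 was at 8.22 and 11.9, 7.83 and 5.33, 51.0 and 49.2, and 35.4 and 31.3 CPM in the wild type, and at 6.05 and 7.99, 11.0 and 12.2, 28.1 and 33.4, and 4.97 and 6.76 CPM in the other libraries. Both were highest at 3 h in both genotypes, and S100a8 overlapped between genotypes there. The 2 subunits did not keep a fixed ratio: S100a8 over S100a9 per kb was 3.26 and 2.21 in the wild type before the block, 1.19 and 1.24 by 3 h and 0.934 and 1.07 by 5 h, and in the libraries labelled as Nat10-deficient it ranged from 1.86 to 3.86.

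Ly6c2 behaved unlike Mpo in the first hour. Wild-type files held 195 and 201, 583 and 575, 883 and 885, and 834 and 841 CPM. The libraries labelled as Nat10-deficient held 397 and 386, 521 and 530, 936 and 932, and 402 and 412 CPM. The log2 ratio of Mpo to Ly6c2 per kb was 3.74 and 3.76 in the wild type at 0 h and 1.11 and 1.12 at 1 h, while the libraries labelled as Nat10-deficient stayed between 3.22 and 4.10.

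The balance of the 4 primary over the 3 secondary granule mRNAs differed between genotypes at every time. The log2 ratio of the 4 primary to the 3 secondary genes, summed per kb, was 9.04 and 9.38, 8.15 and 7.58, 5.33 and 5.47, and 5.98 and 5.94 in the wild type. In the libraries labelled as Nat10-deficient it was 11.3 and 11.0, 10.8 and 11.1, 9.43 and 9.78, and 12.3 and 12.0. The lowest of these values (9.43) lay above the highest wild-type value (9.38), though by little. Both genotypes were lowest at 3 h. The secondary sum in the wild type at 3 h was mostly Ngp, at 66.0 of 75.3 CPM per kb (means of 2 files). At 0 h the secondary sum rested on 142 and 98 counts in the wild type and on 46 and 60 in the Nat10-deficient group. In the Nat10-deficient group at 5 h it rested on 22 and 34 counts. Over S100a8 and S100a9 the ratio was 5.65 and 5.53, 5.16 and 5.32, 3.88 and 3.92, and 4.24 and 4.33 in the wild type, and 6.62 and 6.47, 6.39 and 6.32, 5.95 and 5.81, and 7.58 and 7.54 in the libraries labelled as Nat10-deficient.

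**Figure D3:**
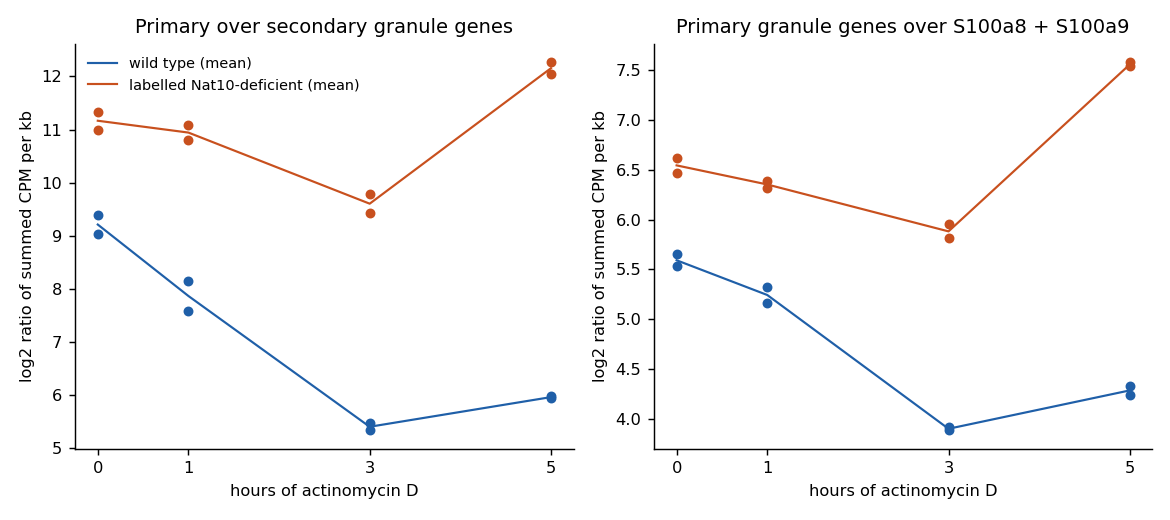
Log2 ratio, within each count file, of the summed CPM per kb of Mpo, Elane, Prtn3 and Ctsg to that of Ltf, Camp and Ngp (left) or of S100a8 and S100a9 (right), against hours of actinomycin D; points are files and lines their mean. The orange series (labelled Nat10-deficient) lies above the blue one (wild type) at each time in both panels, both are lowest at 3 h, and the gap is widest at 5 h.

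Between genotypes, the 4 primary granule mRNAs were higher in the libraries labelled as Nat10-deficient at each of the 4 times, and the later genes were lower at 3 and 5 h apart from Camp at 3 h, when the libraries were scaled so that most genes do not change (edgeR with TMM factors, quasi-likelihood test, Benjamini-Hochberg over all 25081 genes, threshold 0.05). In counts at 0 h, 5 members were higher and 2 lower, where 36% and 24.2% of all tested genes were called in those directions. At 1 h, 6 were higher and 2 lower, against 32.4% and 31.8% of all genes. At 3 h, 4 were higher and 5 lower, against 30.4% and 37%, and at 5 h, 4 were higher and 6 lower, against 34.2% and 30.1%. Averaged over the 4 times, 4 were higher and 6 lower, against 31.6% and 21.6%. The median log2 difference of the members was 0.23, 0.81, -0.26 and -2.33 at the 4 times, beside 0.10, 0.00, -0.07 and 0.10 over all genes.

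Among the primary genes at 1 h, the log2 fold change was 2.12 ± 0.0176 (SE) for Mpo, 2.13 ± 0.0204 for Elane, 1.17 ± 0.0231 for Prtn3 and 2.18 ± 0.0312 for Ctsg, the highest of the 4 times except for Prtn3, which had 1.28 at 3 h. At 5 h they were down to 0.39, 0.43, 0.24 and 0.42 on the same scale. That of Mpo was 0.59 without the first wild-type file at 5 h, and that of Prtn3 was 0.42 or 0.44 without the first or the second. For Ngp the log2 fold change went from -1.08 ± 0.304 at 0 h (adjusted p = 0.00115) through -2.51 and -3.81 to -6.99 ± 0.183 at 5 h (adjusted p = 9.65e-101). Without the first Nat10-deficient file at 0 h, the Ngp difference there was -0.71 with an adjusted p of 0.0854.

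S100a8, S100a9 and Ly6c2 changed side with time. S100a8 had a log2 fold change of 0.07 ± 0.0786 at 0 h (adjusted p = 0.476), then 0.90, -0.31 and -2.32 at the later times, and S100a9 had -0.29 ± 0.157 (adjusted p = 0.106), 0.72, -0.996 and -3.80. Ly6c2 was higher at 0 h, with 1.21, and lower from 1 h on, with -0.20, -0.21 and -2.33. Camp passed the test at 5 h, with -4.18 ± 0.326, and not at 0, 1 or 3 h, though at 3 h it was called lower by DESeq2 (-0.68, adjusted p = 0.0105) and with library sizes without immunoglobulin genes (-0.71, adjusted p = 0.00983). Ltf was lower before the block (-2.01), at 3 h (-3.42) and at 5 h (-2.45), and not separated at 1 h (0.30, adjusted p = 0.516). The Ltf difference at 5 h rests on the first wild-type file, without which it was -0.78 (adjusted p = 0.600), and it was -4.58 without the second Nat10-deficient file. S100a9 at 0 h was called without the first wild-type file (-0.53) or without the second Nat10-deficient one (-0.48), and had 0.01 without the second wild-type file.

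**Figure D4:**
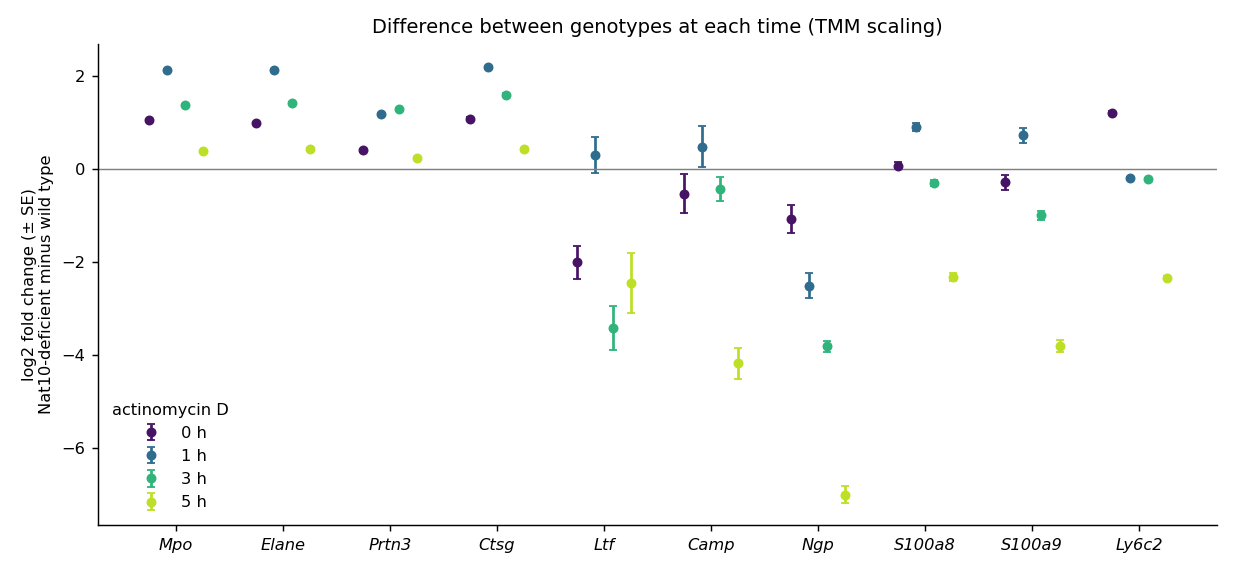
Log2 fold change, Nat10-deficient minus wild type, of each member at 0, 1, 3 and 5 h of actinomycin D (TMM scaling, 2 files per group); points are estimates and bars 1 SE. The 4 primary granule genes are above 0 at all times and largest at 1 h or, for Prtn3, at 3 h, and Camp, Ngp, S100a8, S100a9 and Ly6c2 are lowest at 5 h.

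How the libraries are scaled sets what these differences are relative to. Against the spike-ins, the difference between genotypes (libraries labelled as Nat10-deficient minus wild type) was shifted up by 5.44 to 6.13 log2 units, as medians over all genes. This put all 10 members higher in those libraries up to 3 h and 9 of 10 at 5 h, with Ngp the exception. On that scale 21904, 21203, 20333 and 21288 of the 25081 genes tested were called at 0, 1, 3 and 5 h, in either direction. Counts of Mpo per 1000 spike-in counts, for example, were 180 in the wild type and 26284 in the libraries labelled as Nat10-deficient at 0 h (means of 2 files), and 104 and 6791 at 5 h. With the files of a group summed, which leaves 1 value per genotype and time, the mean difference of Mpo was 1.24 ± 0.285 (adjusted p = 0.0815), that of Elane 1.24 ± 0.282 (0.0801), that of Ctsg 1.33 ± 0.289 (0.0779) and that of Ngp -3.46 ± 0.820 (0.0843). No member passed the threshold in that edgeR fit, in which 17 of all genes did. An unadjusted p under 0.05 was found there for 5 members and for 3465 of the 25081 genes tested. Averaged over 0, 1 and 3 h alone, the differences of S100a8 and Ly6c2 were 0.22 and 0.26, the opposite sign to their values over all times (-0.42 and -0.38).

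Over the steps of the time course, again relative to the other genes, the members split in the first wild-type hour and rose together from 1 to 3 h. From 0 to 1 h in the wild type, 2 members rose and 6 fell, where 29.7% and 31.6% of all genes were called. The 2 were Ly6c2, at a log2 change of 1.79 ± 0.0291, and Ngp, at 1.41 ± 0.225, which against the spike-ins was 0.47 and not called (adjusted p = 0.0544). Mpo and Elane fell by 0.84 each, Ctsg by 0.83, Prtn3 by 0.46, S100a8 by 0.44 and Ltf by 1.24, the last not called without the first 0 h file (adjusted p = 0.0630). From 1 to 3 h all 10 rose, where 36.1% of all genes rose and 30.7% fell: Ngp by 4.26 ± 0.127, S100a9 by 3.54, Camp by 3.28, S100a8 by 2.51, Mpo and Elane by 1.77, Ltf by 1.76, Ctsg by 1.39, Ly6c2 by 1.25 and Prtn3 by 0.68. From 3 to 5 h, 7 rose and 2 fell, against 27.8% and 35.2%, but the direction of that step depended on the scaling. Mpo rose by 0.50 with TMM factors and had a log2 change of -0.03 with library sizes without immunoglobulin genes and no TMM factors, and of -0.52 against the spike-ins.

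In the libraries labelled as Nat10-deficient the members moved up and then down. From 0 to 1 h, 8 rose, where 23.2% of all genes rose and 26.7% fell, and Camp and Ngp did not pass; the rises were 0.24 for Mpo, 0.30 for Elane, 0.31 for Prtn3, 0.27 for Ctsg, 0.40 for S100a8, 0.68 for S100a9, 0.39 for Ly6c2 and 1.06 for Ltf, the last not called without the first 0 h file (0.98) or the second 1 h file (0.83). Against the spike-ins those 8 had changes from -1.11 (Mpo) to -0.28 (Ltf). From 1 to 3 h, 9 rose and Ltf fell, against 27.7% and 28.1% of all genes, led by Ngp at 2.96 ± 0.248 and Camp at 2.38 ± 0.299. From 3 to 5 h 9 fell, where 30.6% of all genes rose and 32.1% fell, with Ngp at -3.39, Camp at -2.95, S100a9 at -2.54, S100a8 at -2.05, Ly6c2 at -1.35, Ctsg at -0.80, Prtn3 at -0.51 and Mpo and Elane at -0.49. The order of the falls set the primary granule genes apart from the later ones, with Ltf not called (-0.52, adjusted p = 0.543).

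The study's own question, how fast mRNAs were lost, was addressed with slopes over 0 to 5 h scaled on the spike-ins. Over all genes the median slope was -0.36 log2 per hour in the wild type and -0.48 in the libraries labelled as Nat10-deficient. In the wild type 5 members rose and 3 fell, where 11.1% and 57.4% of all genes were called in those directions. Ngp rose by 0.79 ± 0.0281 log2 per hour, Camp by 0.48, S100a9 by 0.44, Ly6c2 by 0.32 and S100a8 by 0.13, while Prtn3 fell by 0.21, Ctsg by 0.12 and Ltf by 0.44, or by 0.70 without the first 5 h file. Without the 5 h libraries the Ltf slope was -0.09 and not called (adjusted p = 0.478). Mpo and Elane both had slopes of -0.01 (adjusted p = 0.0777 and 0.0847), so no loss of these 2 mRNAs over 5 h was detectable as a straight line; without the first wild-type file at 0 h both slopes were -0.02 and called. Levels that rise under a transcription block give no half-life, and Mpo did not follow a line, with 180, 52.3, 149 and 104 counts per 1000 spike-in counts at 0, 1, 3 and 5 h.

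All 10 members fell in the libraries labelled as Nat10-deficient, where 71.3% of all genes fell and 3.19% rose. The slopes were -0.30 for Mpo, -0.28 for Elane, -0.35 for Prtn3 and -0.40 for Ctsg. As straight lines these correspond to half-lives of 3.31, 3.53, 2.87 and 2.47 h. From 1 to 3 h, however, these 4 rose against the spike-ins, with log2 changes of 0.48, 0.52, 0.25 and 0.27. The half-lives therefore describe a fitted line that the levels did not follow. The other slopes were -0.37 for Camp, -0.42 for Ngp, -0.50 for S100a8, -0.43 for S100a9, -0.39 for Ly6c2 and -0.89 for Ltf. Except for S100a8 and Ltf, these slopes were less steep than the median over all genes. Without the 5 h libraries the slopes of Camp, Ngp and S100a9 were 0.47, 0.48 and 0.27 that of S100a8 was 0.00 and that of Ly6c2 was -0.02 (adjusted p = 0.0628), so the falls of these 5 rest on the last time point.

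The slope was lower in the libraries labelled as Nat10-deficient for all 10 members, where 32.1% of all genes were called lower and 15.7% higher in the test of the difference between slopes. The difference was -1.21 ± 0.0829 log2 per hour for Ngp, -0.87 for S100a9, -0.85 for Camp, -0.71 for Ly6c2, -0.63 for S100a8 and -0.45 ± 0.138 for Ltf. It was smaller for the primary genes, at -0.29 for Mpo, -0.27 for Elane, -0.28 for Ctsg and -0.14 for Prtn3. The median over the members was -0.54 and over all genes -0.10. With the files of a group summed, no member's difference passed in edgeR (adjusted p of 0.323 for Ly6c2, the lowest, and 70 of all genes called). An unadjusted p under 0.05 was found there for 3 members and for 1722 of the 25081 genes tested. Without the 5 h libraries Prtn3 had a difference of 0.04, and Camp had -0.25 and was not called (adjusted p = 0.172). Ltf was not called without the filter on low counts (adjusted p = 0.0731), nor without the first 5 h file of the wild type (-0.19) or of the Nat10-deficient group (-0.30), and had -0.88 without the second file of the latter.

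**Figure D5:**
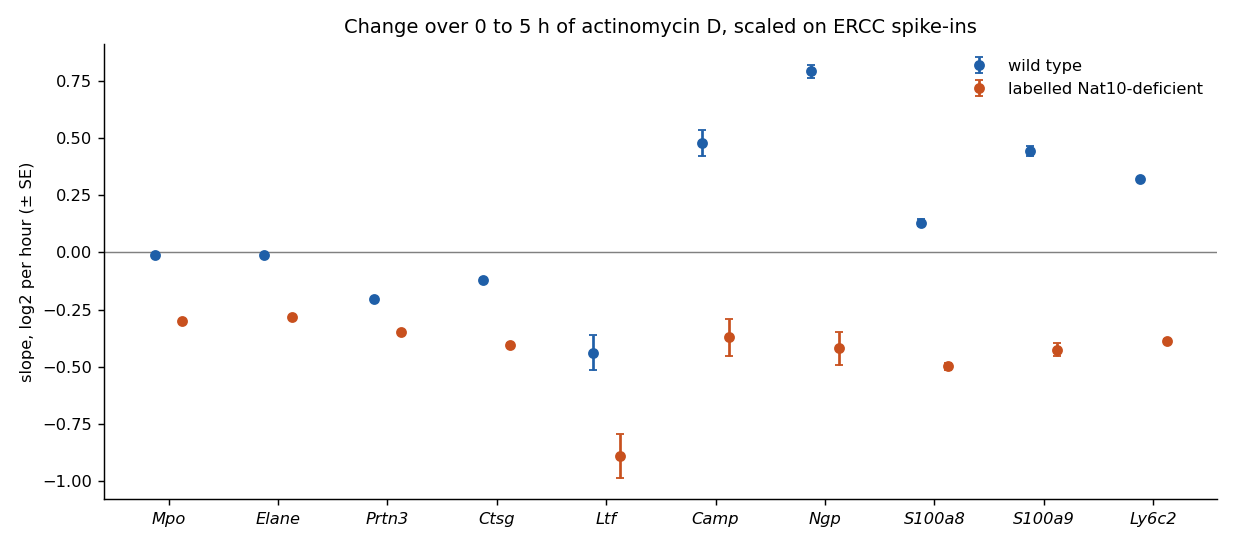
Slope over 0, 1, 3 and 5 h of actinomycin D, in log2 per hour after scaling on ERCC spike-ins, for each member in the wild type (blue) and in the libraries labelled as Nat10-deficient (orange); bars are 1 SE from 2 files per group. All orange points lie below 0, and Camp, Ngp, S100a8, S100a9 and Ly6c2 lie above 0 in the wild type.

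Other granule genes shared the pattern in part. Unless a slope or a step is named, counts over this and the other gene lists are for the genotype contrast, in which, over all genes, 36% were called higher before the block, 30.4% by 3 h, and by 5 h 34.2%, while 24.2%, 37% and 30.1% were called lower. Of 11 further primary granule genes, before the block 5 were higher and 2 lower, and by 5 h 1 was higher and 6 were lower, with medians of 0.22 and -0.40. At 3 h 7 were higher and 4 lower, with a median of 0.77. Among the most abundant, Srgn, the granule proteoglycan serglycin, was at 959 ± 7.23 CPM in the wild type and 970 ± 9.87 CPM in the libraries labelled as Nat10-deficient at 0 h, Cd63, a granule membrane tetraspanin, at 626 ± 14.7 and 521 ± 16.3, Lyz2, lysozyme, at 576 ± 16.8 and 391 ± 9.44, and Gusb, a lysosomal glucuronidase, at 143 ± 2.64 and 153 ± 7.15 (SD, n = 2). Of these, Srgn (0.24) and Gusb (0.32) were called higher before the block, Lyz2 (-0.34) lower and Cd63 (-0.05) neither, and at 3 h all 4 were called higher, with log2 differences of 0.81 for Srgn, 0.92 for Cd63, 0.77 for Lyz2 and 0.35 for Gusb.

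Of 16 other late neutrophil genes 13 were testable, and at 0 h 9 were higher and 2 lower, at 5 h 1 higher and 8 lower. At 0 h the 16 summed to 343 CPM in the wild type and 352 CPM in the libraries labelled as Nat10-deficient. The 11 further primary granule genes summed to 2778 and 2545 CPM. On these lists the primary to late balance at 0 h was not higher in the latter libraries, unlike that of the members. At 1, 3 and 5 h the primary sum was higher and the late sum lower there. Cybb, a subunit of the phagocyte oxidase, went from 28.4 CPM at 0 h to 201, 413 and 303 CPM in the wild type, and from 55.6 to 56.4, 154 and 43.2 CPM in the libraries labelled as Nat10-deficient. Its partner Cyba went from 89.7 CPM at 0 h to 165 CPM at 5 h in the wild type and ended at 89.1 CPM in the other libraries, and Anxa1, annexin A1, went from 102 to 24.2 and from 82.0 to 61.5 CPM. Hp, haptoglobin, went with the primary genes, at 31.2, 17.9, 39.4 and 26.4 CPM in the wild type and 49.8, 77.9, 127 and 57.3 CPM in the other libraries.

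Receptors of mature neutrophils were a separate set, with 9 of 12 testable, 8 higher at 0 h, and 2 higher and 3 lower at 5 h. Selplg, the P-selectin ligand, was at 171 CPM in the wild type and 201 CPM in the libraries labelled as Nat10-deficient at 0 h, Csf3r, the G-CSF receptor, at 77.5 and 87.0, and Trem1 at 5.03 and 23.8 CPM. Of 14 monocyte and macrophage genes, 12 were higher and 1 was lower before the block, and by 5 h 3 were higher and 8 lower. Ctss, cathepsin S, went from 25.4 CPM at 0 h to 210 CPM at 1 h and 308 CPM at 5 h in the wild type, alongside Ly6c2. F13a1 was at 10.9, 6.34 and 5.58, Mpeg1 at 6.74, 27.8 and 7.76 and Ccr2 at 11.0, 22.3 and 10.4 CPM at 0, 1 and 5 h. From 0 to 1 h in the wild type 9 of the 14 rose and 3 fell, with a median of 1.05, where 29.7% and 31.6% of all genes were called.

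Among transcription factors of the lineage, 9 of 10 fell in the wild type and all 10 in the libraries labelled as Nat10-deficient by their slopes, with medians of -0.64 and -0.86 log2 per hour, where 57.4% and 71.3% of all genes fell, with medians of -0.36 and -0.48. Spi1, which encodes PU.1, went from 102 to 12.1 CPM over 5 h in the wild type and from 140 to 18.8 CPM in the other libraries, Runx1 from 169 to 6.61 and from 143 to 27.2, Irf8 from 51.5 to 31.0 and from 89.8 to 5.94, and Myb from 79.1 to 9.26 and from 96.9 to 88.9 CPM.

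Markers of other cells moved in the same libraries, and their part in the results above was not tested. The 12 plasma and B cell genes summed to 3776, 25252, 59128 and 72670 CPM over time in the wild type and to 6337, 8690, 30422 and 4370 CPM in the libraries labelled as Nat10-deficient. All 12 were called higher from 0 to 1 h in the wild type, where 29.7% of all genes were called higher and 31.6% lower. Among them, Mzb1 and Pax5 were at only 0.479 and 0.723 CPM at 1 h. Most of the plasma and B cell sum was Jchain (3049 to 70535 CPM in the wild type), and Xbp1, Sdc1 and Cd79a were next. Ly6a, a stem cell antigen that activated lymphocytes also carry, went from 42.9 to 192 CPM in the wild type when Kit and Gata2, which mark stem and progenitor cells, went from 678 to 37.0 and from 368 to 4.34 CPM. In the libraries labelled as Nat10-deficient, the plasma and B cell sum was highest at 3 h. So was the mean CPM of every member except Ltf. In the wild type the plasma and B cell sum was highest at 5 h. Mpo, Elane, Ly6c2, Camp, Ngp, S100a8 and S100a9 were highest there at 3 h, and Prtn3, Ctsg and Ltf at 0 h.

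Granulocyte lineages other than the neutrophil also differed. The 9 mast cell and basophil genes, led by Prss34, Mcpt8, Hdc and Cpa3, summed to 172, 1221, 582 and 311 CPM in the wild type and 497, 1083, 4362 and 1812 CPM in the libraries labelled as Nat10-deficient, with all 9 higher at 0 h. The 7 eosinophil genes, led by Prg2, Epx, Prg3 and Siglecf, summed to 261, 470, 2048 and 1667 CPM and to 1379, 1939, 5870 and 5761 CPM, with all 7 higher at 0 h. The 8 erythroid genes, led by Car2, Car1, Tfrc and Klf1, summed to 4338 and 1567 CPM at 0 and 5 h in the wild type and to 4455 and 13526 CPM in the other libraries, with 6 higher at 0 h.

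Across the 8 group means, likeness between members was described by Pearson's r of log2(TMM CPM + 1). Mpo had r = 0.9996 with Elane, 0.974 with Ctsg and 0.971 with Prtn3, but 0.04 with Ngp, 0.395 with Camp and -0.49 with Ltf. Camp had 0.990 with S100a9 and 0.909 with Ngp, S100a8 had 0.980 with S100a9, and Ltf had 0.264 with Camp. The members thus fell into the primary granule genes, a group of Camp, Ngp, S100a8, S100a9 and Ly6c2, and Ltf alone. Among 5677 genes of at least 20 CPM, those most like Mpo were Hp (0.959), Prss57 (0.952), Ms4a3 (0.948), Epx (0.947) and Lamtor2 (0.947). Those most like S100a8 were Slc4a1 (0.942), Itm2c (0.916), Ganc (0.914), Ccr10 (0.914) and Napsa (0.910). These points share libraries, depth and scaling factors.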

How the data were processed

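Whole-number counts per gene were deposited by the authors, 1 file per sample; per the file headers they were made with featureCounts 1.6.3 in paired, unstranded mode, and the submitters' processing notes also name STAR, DESeq2 and the build GRCm39. The exon length column gave values per kb. Names were matched for 52081 of 55414 mouse genes (94.0%) through a GENCODE annotation; counts of 92 ERCC spike-ins stayed out of library sizes. Without strand, reads of a gene and an antisense partner cannot be told apart. CPM is counts per 1000000 gene counts.

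Counts were fitted with edgeR 4.0.16 (R 4.3.3): filterByExpr, 8 group means, glmQLFit and glmQLFTest, Benjamini-Hochberg adjustment, threshold 0.05. Genotype and step contrasts used TMM factors; slopes used spike-in factors. The SE of a log2 value was its size over the square root of F. The fit was tested on simulated counts. TMM factors ran from 0.435 to 1.46. The 2 files of a group differed by more than sampling noise (chi-square per degree of freedom 1.43 to 1.81) and were kept as 2. Same-numbered files did not deviate together (r from -0.03 to 0.06 over 28 pairs of groups).

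Named genes were the 10 members, the 4 most abundant of each marker list (some are not reported here), Nat10 and the 5 genes most like Mpo or S100a8. The members and lists were chosen with earlier results of these data known. Alternatives were DESeq2 1.42.0, no low-count filter, each file left out, a replicate block, summed files, other scalings and fewer time points. A sort time of 4 h in the labels was not analysed here.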

Additional observations from a re-analysis of the deposited data

Results flagged for a closer look

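The change over 0 to 5 h, scaled on the spike-ins, differed between genotypes for each of the 10 members by the test of the difference between slopes (edgeR quasi-likelihood, Benjamini-Hochberg over all genes). In log2 per hour, Nat10-deficient minus wild type, the primary granule genes had -0.29 (Mpo), -0.27 (Elane), -0.14 (Prtn3) and -0.28 (Ctsg). The secondary granule genes had -0.45 (Ltf, adjusted p = 0.00275), -0.85 (Camp) and -1.21 (Ngp). S100a8 had -0.63, S100a9 had -0.87 and Ly6c2 had -0.71. For Camp, Ngp, S100a8, S100a9 and Ly6c2 the slopes had opposite signs in the 2 genotypes. The spread in this test is that between 2 files of a group. Of all genes, 32.1% were called lower and 15.7% higher by the same test. Without the 5 h libraries the difference was 0.044 for Prtn3, and -0.25 for Camp, which was then not called (adjusted p = 0.172).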

How the results depend on the processing

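With the files of a group summed, edgeR called 0 members in these contrasts: mean genotype difference, wild-type slope, Nat10-deficient slope and slope difference. Of all genes, 17, 6897, 8891 and 70 were called, against 13346, 17192, 18693 and 11982 with the files kept apart. Members with an unadjusted p under 0.05 in the summed fits numbered 5, 2, 4 and 3, beside 3465, 9218, 10731 and 1722 of the 25081 genes tested. The median biological coefficient of variation was 0.988 in the summed fit of 1 line per genotype, scaled on spike-ins. It was 0.135 in the fit of 8 group means with TMM factors. These fits differ in model and scaling, so the 2 values do not compare the spread between groups with that between files. No value that had passed the test changed direction when a file was left out, with DESeq2, with a replicate block or without the low-count filter. The replicate block changed the calls of Mpo and Elane alone (wild-type slope, adjusted p = 0.00674 and 0.0104; 10 members called in place of 8). Leaving out single files lost 14 calls and gained 6, mostly of Ltf, Camp, Ngp and S100a9, whose counts limit the precision.

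With TMM factors in place of spike-ins, 6 members and 15266 of the 25081 genes tested were called for the Nat10-deficient slope. Slopes that changed sign were, in the wild type, Mpo 0.38, Elane 0.38, Prtn3 0.19 and Ctsg 0.27. In the Nat10-deficient libraries they were Mpo 0.19, Elane 0.20, Prtn3 0.14, Ctsg 0.083, Camp 0.11, Ngp 0.067, S100a9 0.062 and Ly6c2 0.10. With spike-ins in place of TMM factors, chosen after seeing the data, these differences between genotypes changed sign: at 0 h Ltf 4.12, Camp 5.59, Ngp 5.05 and S100a9 5.85; at 1 h Ngp 3.21 and Ly6c2 5.54; at 3 h Ltf 2.01, Camp 5.02, Ngp 1.64, S100a8 5.15, S100a9 4.46 and Ly6c2 5.24; at 5 h Ltf 3.13, Camp 1.45, S100a8 3.32, S100a9 1.85 and Ly6c2 3.31; on average Ltf 3.82, Camp 4.56, Ngp 2.14, S100a8 5.33, S100a9 4.65 and Ly6c2 5.36. So did, from 3 to 5 h in the wild type, Mpo -0.52, Elane -0.52, Prtn3 -0.49, Ctsg -0.65, Camp -0.22, S100a9 -0.76 and Ly6c2 -0.25, and from 0 to 1 h in the Nat10-deficient libraries, Mpo -1.11, Elane -1.05, Prtn3 -1.04, Ctsg -1.08, Ltf -0.28, S100a8 -0.95, S100a9 -0.67 and Ly6c2 -0.96. With library size without immunoglobulin genes and no TMM factors, the wild-type step from 3 to 5 h was -0.027 for Mpo, -0.029 for Elane, -0.15 for Ctsg and -0.26 for S100a9.

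Fewer time points were also chosen after seeing the data. Without 5 h, the mean genotype difference was 0.22 for S100a8 and 0.26 for Ly6c2, the wild-type slope 0.029 for Mpo and 0.029 for Elane, the Nat10-deficient slope 0.47 for Camp, 0.48 for Ngp, 0.0049 for S100a8 and 0.27 for S100a9, and the slope difference 0.044 for Prtn3. With 0 and 1 h only, the mean difference was 0.48 for S100a8, 0.22 for S100a9 (adjusted p = 0.0908) and 0.50 for Ly6c2. The cause of these changes was not tested.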
